A study of Bos taurus with 16 samples.

Results

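The genes described here build the seal and the fluid-filled cavity of the blastocyst: tight junctions, adherens junctions, desmosomes, gap junctions, apical polarity proteins, the sodium pump, a sodium-proton exchanger and aquaporins. They were taken by symbol, as every gene whose name starts with CLDN, TJP, CGN, ATP1A, ATP1B, AQP, GJA, GJB, DSC, DSG or PARD, together with OCLN, F11R, JAM2, CDH1, CTNNA1, CTNNB1, CTNND1, JUP, DSP, MARVELD2, PRKCI and SLC9A3. The rule found 76 genes of 15229 with a symbol on the array, read by 115 of 43794 probes. There were 20 claudins (29 probes), 4 other tight junction membrane proteins (5 probes), 3 tight junction scaffolds (5 probes), 4 adherens junction genes (8 probes), 8 desmosome genes (16 probes), 9 connexins (13 probes) and 6 polarity genes (7 probes). A further 5 genes belong by name to the sodium pump α and β families (9 probes), SLC9A3 is the only exchanger (1 probe), and 10 are aquaporins (15 probes). The last 6, CGN1, CLDND1, CLDND2, DSCAML1, DSCC1 and DSCR3, match a prefix by name only and belong to other families.

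In the mammalian embryo the outer cells become the first epithelium, the trophectoderm. They polarise, join by cadherins and catenins, seal the spaces between them with claudins and occludin on scaffolds such as TJP1, and brace their contacts with desmosomes. The sodium pump on the inner side of the cells draws sodium into the embryo, and water follows, in part through aquaporins, so that the blastocoel fills and the tight junctions hold the fluid in.

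The samples were whole day 7.5 blastocysts flushed from non-lactating Holstein cows. The cows were fed rolled canola (CAN, the control diet, rich in oleic acid, 8 cows), sunflower (SUN, linoleic acid, 7 cows) or flax seed (FLX, α-linolenic acid, 8 cows). All had at least 35 days on the diet, were superstimulated with follicle-stimulating hormone and were inseminated with semen of a single sire, so that no untreated or naturally ovulating group was compared. Each cow's embryos of like stage were combined before freezing, and the cows behind each replicate are not given in the sources used here. Each diet had 4 replicates, and each replicate was hybridised against a CAN sample on 2 arrays with the dyes exchanged, which gives 16 arrays. The comparison asks whether transcript levels of the embryos differed with the oilseed in the maternal ration. Values are log2 ratios of diet over CAN, as the mean of the 2 arrays of a replicate, so that 0 means equal signal and 1 means a doubling. The direction, Cy5 over Cy3, and the log base of 2 are the likely ones, and with the opposite direction every sign given here turns.

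Ratios carry no level, so whether a junction gene or a cell type marker was well above background could not be read from them. In whole embryos, fewer cells of a type and less RNA per cell cannot be told apart. The 2 diets were hybridised on different slides (FLX on 1 and 2, the sunflower samples on 3 and 4), so that slide and diet cannot be told apart in FLX vs SUN. The precision is limited by the number of arrays, and the median standard error of a feature's mean was 0.0704 in each comparison with CAN and 0.0995 in FLX vs SUN. Over all probes, the 2 arrays of a replicate, as deposited, correlated at −0.616 to −0.165, the sign that exchanged dyes give. Replicates of 1 diet correlated weakly with each other, at −0.264 to 0.0482 in FLX and −0.266 to 0.30 in SUN. The third replicate of both diets stood apart for several junction genes, as the lowest for some and the highest for others. Means without it (n = 3 per diet) are given for the genes described as lowest in it and for CLDN12, CLDN7 and F11R, which were highest in it. That choice was made after seeing the data. The exchanged dyes often read a junction gene in opposite directions: the mean over the 4 arrays of each orientation differed in sign for 47 of 76 members in FLX (61.8%, beside 59.9% of all features) and for 46 in SUN (60.5%, beside 55.1%).

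No junction or blastocoel gene passed the test in either diet. Each comparison was fitted over 37233 features (genes and probes without a symbol) with limma and called at an adjusted p under 0.05 after Benjamini-Hochberg adjustment. FLX vs CAN called 0 of the 76 genes beside 0% of all features, SUN vs CAN called 0 beside 0%, and FLX vs SUN called 0 beside 0%. The lowest limma adjusted p of a member was 1.00 in FLX vs CAN, 0.774 in SUN vs CAN and 1.00 in FLX vs SUN. At an unadjusted p under 0.05, 1 member was counted in FLX vs CAN (1.32% of members, beside 2.92% of all features). That gene was CLDN6. In SUN vs CAN 7 members were counted (9.21%, beside 6.44%), of which CLDN6, OCLN, ATP1B3 and DSG4 were positive (4 of 76, beside 3.59% of all features) and ATP1B2, CLDN3 and CDH1 negative (3 of 76, beside 2.85%). That count rested on single replicates: it was 4 without SUN replicate 1, 2 without SUN replicate 2 and 12 without SUN replicate 3, beside 5.89%, 4.18% and 10.7% of all features. Leaving out FLX replicate 1 gave 4 members in FLX vs CAN, beside 3.46%.

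The group as a whole was centred on 0. In FLX, 35 members had a positive and 41 a negative mean, with a median of −0.0081 ± 0.014 (SD of the 4 replicate medians) beside 0.0032 over all features. In SUN, 42 were positive and 34 negative, with a median of 0.0070 ± 0.025 beside 0.00055. Member means ran from −0.30 for CLDN12 to 0.27 for MARVELD2 in FLX, and from −0.44 for CLDN10 to 0.60 for CLDN23 in SUN. A mean beyond 0.2 in either direction was reached by 4 members in FLX (5.26%, beside 6.88% of all features) and by 16 in SUN (21.1%, beside 10.5%). The sign was shared by all 4 replicates for 6 members in FLX, where 10.2% of all features did so, and for 8 in SUN, where 13.8% did. Both shares of members, 7.89% and 10.5%, lay under those of all features.

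**Figure D1:**
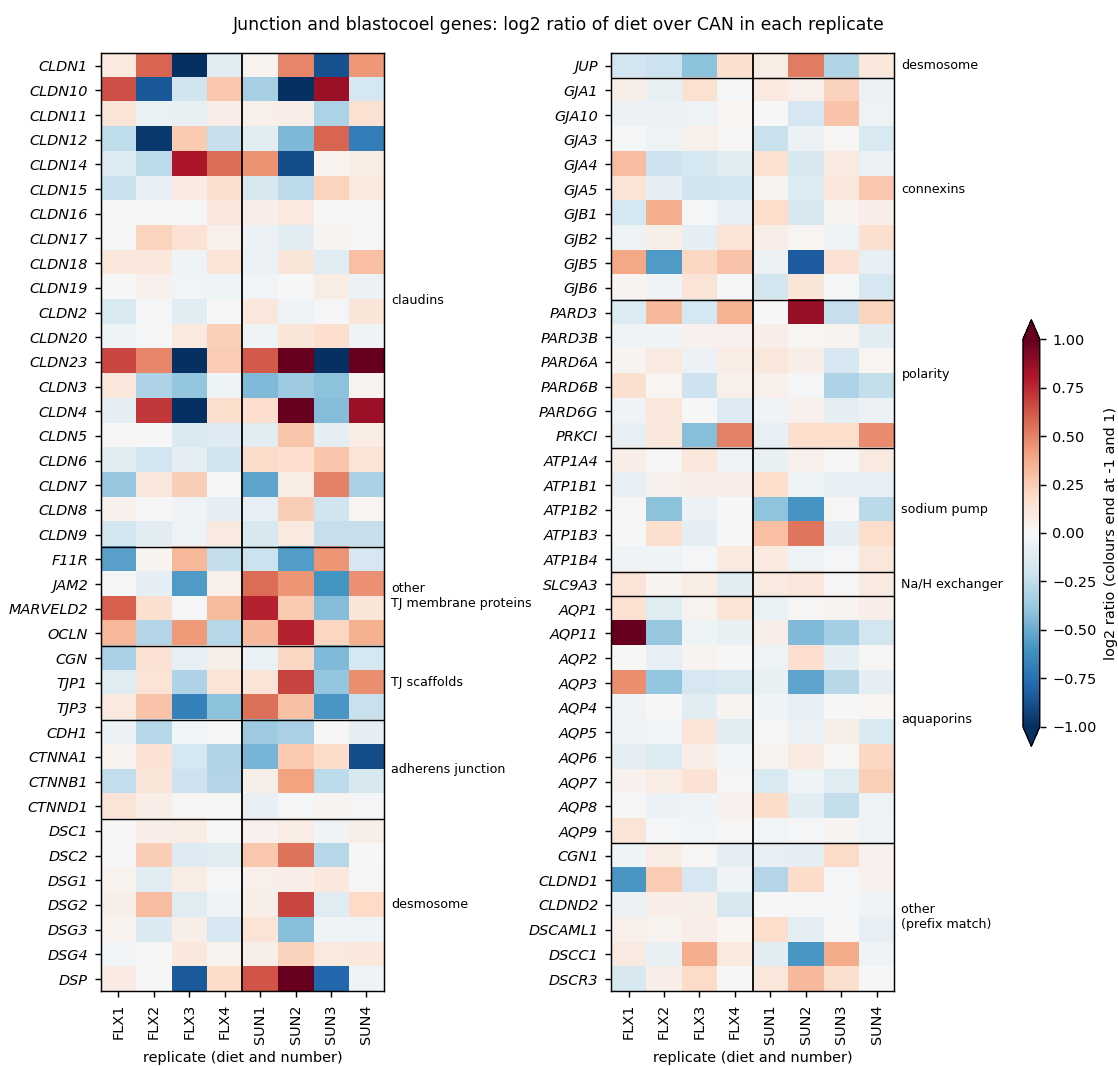
Log2 ratio of diet over CAN for the 76 genes (rows, by role) in each of the 8 replicates (columns), with red above and blue below CAN and colours ending at −1 and 1. CLDN23, CLDN4, CLDN1 and DSP are deep blue in the third replicate of a diet while the second of SUN is red, and most aquaporins and connexins are pale throughout.

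The claudins are the membrane proteins that set how tight the seal is and which ions leak through it, and they held the widest values. Of 20 claudins, 6 had a positive mean in FLX (median −0.029) and 9 in SUN (median −0.0037). CLDN6, a claudin known from early embryonic epithelia, had log2 ratios of −0.11, −0.20, −0.10 and −0.20 in FLX replicates 1 to 4 and of 0.19, 0.17, 0.28 and 0.13 in SUN. All FLX replicates lay below CAN and all SUN replicates above it, so the groups did not overlap. Of the 76 genes, CLDN6 was the only one whose FLX and SUN values did not overlap, beside 1.92% of all features. The means were −0.15 ± 0.05 in FLX and 0.19 ± 0.06 in SUN (SD, n = 4), and the difference of same-numbered replicates was −0.34 ± 0.04. The limma adjusted p was 1.00 in FLX vs CAN, 0.774 in SUN vs CAN and 1.00 in FLX vs SUN unpaired. With same-numbered replicates paired it was 0.888 in FLX vs SUN, so that none of these passed over all features.

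The tight replicate means of CLDN6 were averages of arrays that differed widely. With CAN in Cy3 the SUN arrays read 0.61, 0.76, 0.40 and 0.23, and with CAN in Cy5 they read −0.23, −0.43, 0.16 and 0.030. In FLX the arrays with CAN in Cy3 read −0.026, −0.16, −0.40 and −0.37, and those with CAN in Cy5 read −0.20, −0.23, 0.20 and −0.024. The FLX and SUN arrays were thus apart in the first orientation and overlapped in the second. The difference between the diets was −0.74 on the arrays with CAN in Cy3 and 0.052 on those with CAN in Cy5. The 2 arrays of a replicate differed by 0.457 on average, more than the SD of 0.191 over the 8 replicate means, and they had the same sign in 5 of 8 replicates. The first value is a difference of single arrays and the second an SD of means of 2, so they are unlike measures. The SD exceeded the difference in only 27.2% of all features. CLDN9, the neighbouring gene of CLDN6 in the order of protein-coding genes in assembly ARS-UCD2.0, had means of −0.064 ± 0.11 in FLX and −0.13 ± 0.16 in SUN.

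**Figure D2:**
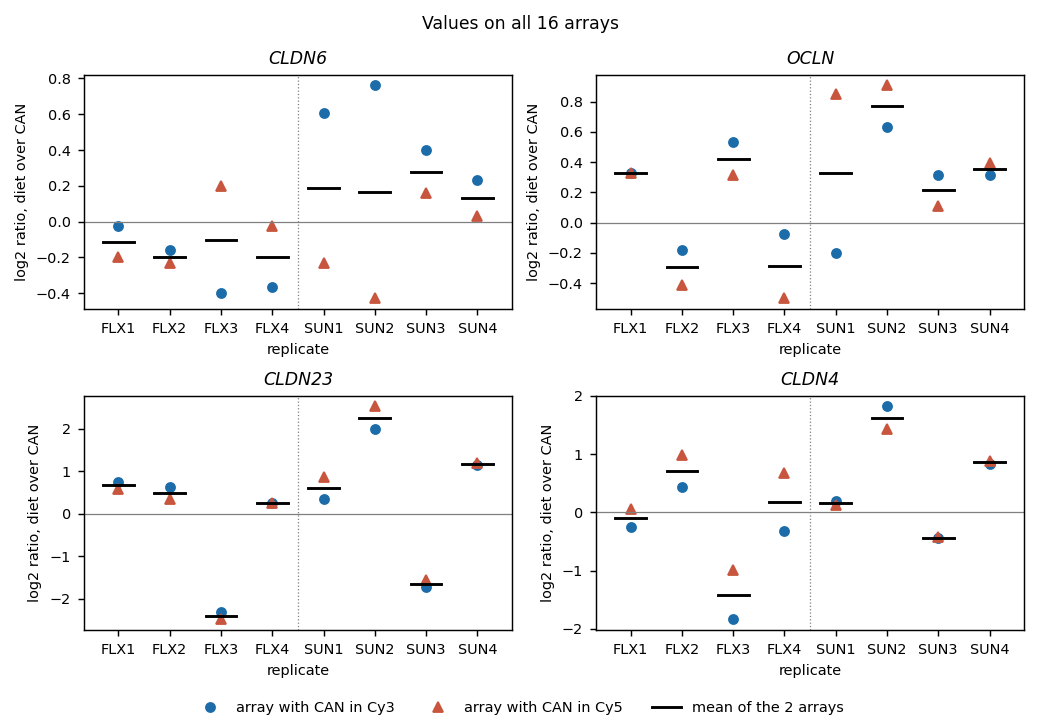
Log2 ratio of diet over CAN on all 16 arrays for CLDN6, OCLN, CLDN23 and CLDN4, by replicate, with the array that had CAN in Cy3 as a circle, its dye exchange as a triangle and their mean as a line. For CLDN6 circle and triangle are far apart (0.61 against −0.23 in SUN replicate 1), while for CLDN23 they lie close together at values from −2.48 to 2.53.

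CLDN23 varied more between replicates than any other member, with an SD of 1.50 over the 8 replicates. Its log2 ratios were 0.67, 0.49, −2.39 and 0.26 in FLX and 0.61, 2.26, −1.64 and 1.18 in SUN. In both diets the third replicate was far below CAN and the other 3 were above it, and the diets overlapped, with SUN replicates 2 and 4 above every FLX replicate. The means were −0.24 ± 1.44 in FLX and 0.60 ± 1.64 in SUN (SD, n = 4), with limma adjusted p of 1.00 and 0.839. Without the third replicate of both diets, the means were 0.47 in FLX and 1.35 in SUN, with adjusted p of 1.00 and 0.279. Here the dyes read alike: the 2 arrays of a replicate differed by 0.245 on average and had the same sign in 8 of 8 replicates.

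CLDN4, which lines many tight epithelia, was likewise lowest in the third replicates. It read −0.094, 0.71, −1.41 and 0.18 in FLX and 0.16, 1.62, −0.43 and 0.86 in SUN. The second replicate was the highest in each diet, and the diets overlapped. The means were −0.16 ± 0.90 and 0.55 ± 0.89 (SD, n = 4), and neither passed the test. Without the third replicates they were 0.26 ± 0.41 and 0.88 ± 0.73 (SD, n = 3), with limma adjusted p of 1.00 and 0.374. Within each same-numbered pair CLDN4 was lower in FLX than in SUN, by values given with the direct comparison of the oilseeds. CLDN1, a barrier-forming claudin, read 0.10, 0.58, −1.12 and −0.10 in FLX and 0.034, 0.49, −0.87 and 0.43 in SUN, again lowest in the third. Its means were −0.14 ± 0.72 and 0.021 ± 0.63, and without the third replicates 0.19 ± 0.35 and 0.32 ± 0.25. CLDN10, whose protein forms paracellular ion channels, ran the other way in SUN, at −0.33, −2.13, 0.87 and −0.18, with the third replicate highest and the second lowest. In FLX it read 0.64, −0.85, −0.20 and 0.27, and its means were −0.034 ± 0.64 and −0.44 ± 1.24.

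The median spread of the junction genes was near that of other genes, and a few members were far wider. Over the 8 replicates the median SD of a member was 0.152, beside 0.141 for all features and 0.152 for all genes with a symbol. The widest 5% of all features by this SD held 7 members (9.21%): CLDN23, CLDN10, CLDN4, DSP, CLDN1, AQP11 and CLDN14. For 25 of 76 members (32.9%) the SD over replicates exceeded the mean difference between the 2 arrays of a replicate, beside 27.2% of all features. Trophectoderm markers stood beside this pattern: the median of the 8 measured markers was 0.0055, −0.15, −0.45 and −0.017 in FLX replicates 1 to 4 and 0.11, 0.41, −0.35 and 0.16 in SUN. Of these 8 markers, TKDP1, a trophoblast protease inhibitor, read −1.57 and −2.95 in the third replicates of FLX and SUN. Among the uterine epithelium markers, LTF, lactoferrin, read −2.21 and −2.68 and MUC1, a cell surface mucin, −0.80 and −1.01 in the same replicates. The remaining measured uterine markers lay above these values there, and above the list medians that follow. The low readings were thus those of LTF and MUC1 and not of the whole list. The medians of the 4 measured uterine markers were −0.029, −0.080, −0.49 and 0.074 in FLX and 0.065, 0.068, −0.54 and −0.0027 in SUN. The part of either cell type in the claudin values was not tested.

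**Figure D3:**
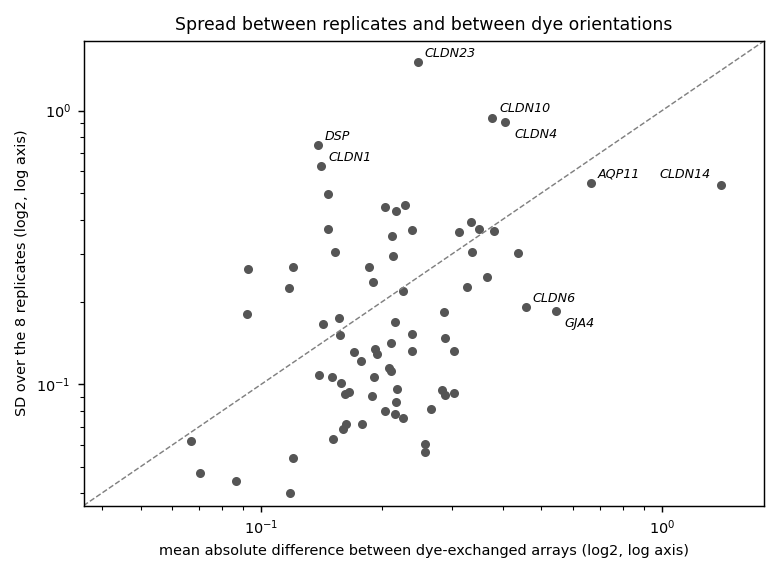
SD of the log2 ratio over the 8 replicates (vertical, log axis) against the mean absolute difference between the 2 dye-exchanged arrays of a replicate (horizontal, log axis) for the 76 genes, with the dashed line where both are equal. CLDN23 (1.50 against 0.245), DSP (0.748 against 0.138) and CLDN1 (0.628 against 0.141) lie far above the line, and CLDN14 (0.535 against 1.40) and CLDN6 (0.191 against 0.457) below it.

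The remaining claudins gave smaller or less even values. CLDN3, a close relative of CLDN4, read 0.12, −0.31, −0.39 and −0.039 in FLX and −0.44, −0.36, −0.41 and 0.037 in SUN. The first 3 SUN replicates were below CAN and the fourth stood near 0, within the range of FLX. Its SUN mean was −0.30 ± 0.22 (SD, n = 4), a 1.23-fold lower level, with a limma adjusted p of 0.774. The SUN mean of CLDN3 was −0.48 on the arrays with CAN in Cy3 and −0.11 on those with CAN in Cy5. CLDN17, whose human protein forms an anion-selective pore, read −0.021, 0.22, 0.14 and 0.049 in FLX and −0.055, −0.10, 0.027 and −0.0096 in SUN, with overlapping groups and means of 0.10 ± 0.11 and −0.035 ± 0.06. CLDN2, which forms a pore for small cations, read −0.15, −0.023, −0.11 and −0.0046 in FLX, all below 0, with a mean of −0.073 ± 0.07. On the arrays with CAN in Cy5 alone the CLDN2 mean was 0.033. CLDN12 had the lowest FLX mean of all members, −0.30 ± 0.50, from −0.96 to 0.26. It was highest in the third replicate of each diet, and without the third replicates its means were −0.48 ± 0.42 in FLX and −0.41 ± 0.29 in SUN. CLDN7 was likewise highest in the third replicates, at 0.25 in FLX and 0.50 in SUN. Its means without them were −0.095 ± 0.26 and −0.26 ± 0.31. CLDN14 was read in opposite directions by the dyes, at −0.54 and 1.03 in FLX with CAN in Cy3 and in Cy5, and agreed in sign in 1 of 8 replicates.

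Among the other membrane proteins of the tight junction, OCLN, occludin, had the most even SUN values. It read 0.33, 0.77, 0.21 and 0.36 in SUN, all above CAN, and 0.33, −0.30, 0.42 and −0.29 in FLX, with 2 replicates on either side of 0. The groups overlapped. The SUN mean was 0.42 ± 0.24 (SD, n = 4), a 1.34-fold higher level with a limma adjusted p of 0.774, and the FLX mean was 0.042 ± 0.39. FLX vs SUN was −0.37 ± 0.59 over same-numbered replicates, and the limma adjusted p of the unpaired fit was 1.00. The OCLN arrays of a replicate had the same sign in 7 of 8 replicates, and the exception was SUN replicate 1, at −0.20 and 0.85. MARVELD2, tricellulin, which seals the corners where cells meet and is the neighbouring gene of OCLN, read 0.60, 0.16, −0.0079 and 0.32 in FLX and 0.77, 0.26, −0.43 and 0.12 in SUN. The third replicate was the lowest in both diets, and the first the highest. Its means were 0.27 ± 0.26 and 0.18 ± 0.49, and limma's adjusted p was 1.00 in FLX vs CAN. Without the third replicates the means of MARVELD2 were 0.36 ± 0.22 and 0.38 ± 0.34.

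JAM2, an adhesion molecule of the immunoglobulin family, read −0.021, −0.087, −0.57 and 0.047 in FLX and 0.56, 0.44, −0.60 and 0.45 in SUN. The other 3 SUN replicates lay above the FLX replicates, and the third lay below them all. Means were −0.16 ± 0.28 and 0.21 ± 0.54 (SD, n = 4). The limma adjusted p in SUN vs CAN was 0.828. Without the third replicate of both diets the SUN mean of JAM2 was 0.48 with an adjusted p of 0.147 from limma, the lowest of the 76 genes under that choice. The FLX mean of JAM2 was then −0.020 ± 0.07. F11R, the related JAM-A gene, had means of −0.11 ± 0.37 and −0.12 ± 0.42. Unlike JAM2 it was highest in the third replicate of each diet, and without the third replicates its means were −0.25 ± 0.29 and −0.31 ± 0.21. The scaffolds that tie these proteins to actin gave no even direction. TJP1, also called ZO-1, read −0.12, 0.13, −0.31 and 0.13 in FLX and 0.13, 0.67, −0.39 and 0.46 in SUN, lowest in the third replicate of each. Its means were −0.041 ± 0.22 and 0.22 ± 0.46, and without the third replicates 0.049 ± 0.15 and 0.42 ± 0.28. TJP3 had means of −0.18 ± 0.44 and 0.0087 ± 0.51, and CGN, cingulin, of −0.049 ± 0.21 and −0.12 ± 0.27. The 3 CGN probes did not read alike, with FLX means of −0.28, 0.087 and 0.052.

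The 4 adherens junction genes had means between −0.16 and 0.055 in FLX and between −0.23 and 0.012 in SUN. CDH1, E-cadherin, which holds the cells together from compaction onward, read −0.057, −0.28, −0.024 and −0.015 in FLX and −0.37, −0.32, −0.0046 and −0.091 in SUN. Every replicate mean was below 0, and the groups overlapped. The 2 CDH1 arrays of a replicate had the same sign in only 4 of 8 replicates. In SUN replicate 3 they read −0.14 and 0.13. By orientation the means were −0.13 and −0.065 in FLX and −0.20 and −0.19 in SUN, with CAN in Cy3 and in Cy5. The means were −0.10 ± 0.13 and −0.20 ± 0.18 (SD, n = 4), with limma adjusted p of 1.00 and 0.774. CTNNA1, the α-catenin that links cadherins to actin, had the widest SUN values of the 4, at −0.46, 0.26, 0.18 and −0.89, beside 0.033, 0.14, −0.18 and −0.30 in FLX. The SUN replicates lay on both sides of 0 and spanned the FLX range. CTNNB1, β-catenin, had means of −0.16 ± 0.19 and 0.012 ± 0.29, the latter from 0.33 with CAN in Cy3 and −0.31 with CAN in Cy5, and CTNND1, p120 catenin, of 0.055 ± 0.05 and −0.023 ± 0.04.

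The desmosome genes, which anchor keratin filaments at cell contacts, had a positive mean in SUN for 7 of 8 members (median 0.11) and in FLX for 4 of 8 (median −0.00070). None passed the test. Medians over the 8 genes were 0.068, 0.37, −0.076 and 0.034 in SUN replicates 1 to 4, so that the second replicate carried much of the SUN value. DSP, desmoplakin, the plaque protein that binds keratin, read 0.085, 0.0035, −0.84 and 0.18 in FLX and 0.63, 1.49, −0.78 and −0.047 in SUN. The third replicate was the lowest in both, as for CLDN23 and CLDN4. The means of DSP were −0.14 ± 0.47 and 0.32 ± 0.97, and without the third replicates 0.090 ± 0.09 and 0.69 ± 0.77. DSG2, the desmoglein of simple epithelia, read 0.058, 0.31, −0.12 and −0.043 in FLX and 0.062, 0.67, −0.12 and 0.20 in SUN, highest in the second replicate of each. Its means were 0.050 ± 0.19 and 0.20 ± 0.34 (SD, n = 4). JUP, plakoglobin, had means of −0.16 ± 0.24 and 0.10 ± 0.33. DSG4, a desmoglein known from hair follicles, had a SUN mean of 0.12 ± 0.07 with all 4 replicates above 0 and a limma adjusted p of 0.774.

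**Figure D4:**
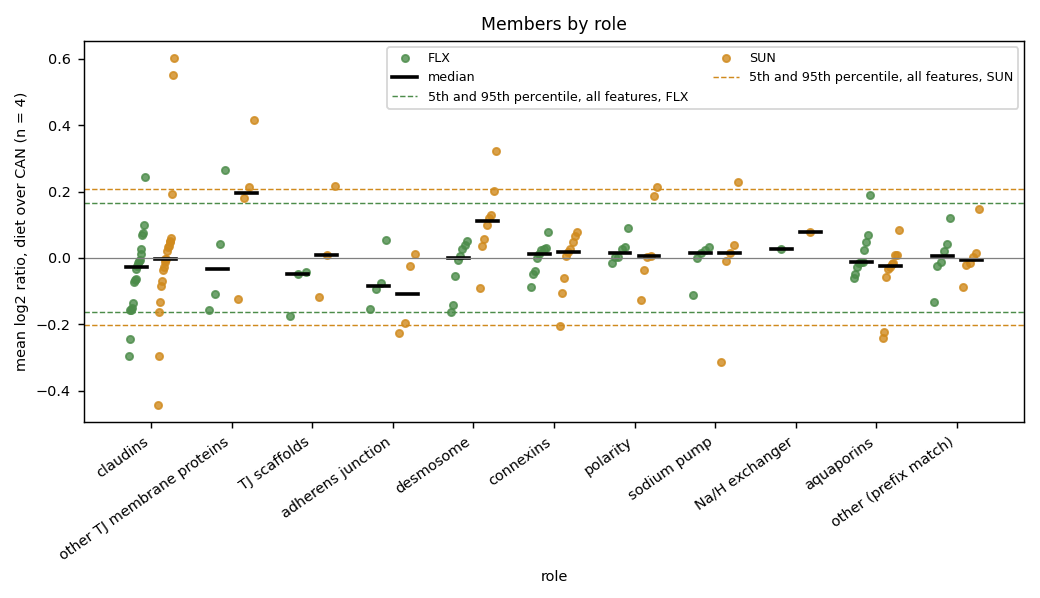
Mean log2 ratio of diet over CAN (vertical, n = 4 replicates) of each of the 76 genes by role, for FLX (green) and SUN (orange), with the group median as a bar and the 5th and 95th percentiles of all features as dashed lines (−0.16 and 0.17 in FLX, −0.20 and 0.21 in SUN). Most connexins, polarity genes and aquaporins lie between the lines, and 8 members lie above and 7 below them in SUN.

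The connexins form the gap junction channels through which neighbouring cells exchange small molecules, and their means stayed between −0.088 and 0.079 in FLX and between −0.21 and 0.080 in SUN. GJB5, a connexin known in the mouse from trophoblast, read 0.39, −0.57, 0.21 and 0.28 in FLX and −0.055, −0.83, 0.15 and −0.084 in SUN. The second replicate was the lowest in both diets, and the groups overlapped. The means were 0.079 ± 0.44 and −0.21 ± 0.43 (SD, n = 4). GJA1, the most widely expressed connexin, had means of 0.030 ± 0.10 and 0.080 ± 0.12. GJA4, known from the oocyte, was read unlike by the dyes in both diets, at 0.23 and −0.32 in FLX with CAN in Cy3 and in Cy5.

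The 6 polarity genes, which mark the outer, apical side of the cells, had medians of 0.016 in FLX and 0.0054 in SUN. PARD3, a scaffold of the polarity complex at the junction, read −0.13, 0.33, −0.18 and 0.35 in FLX and 0.0021, 0.87, −0.23 and 0.22 in SUN. The third replicate was the lowest in each diet, and the groups overlapped. Its means were 0.091 ± 0.29 and 0.21 ± 0.47 (SD, n = 4), and without the third replicates 0.18 ± 0.27 and 0.36 ± 0.45. In SUN the dyes parted, at 0.50 with CAN in Cy3 and −0.069 with CAN in Cy5. PRKCI, the atypical protein kinase C of the complex, had means of 0.027 ± 0.39 and 0.19 ± 0.23, and PARD6B, its partner, of 0.0040 ± 0.15 and −0.13 ± 0.17.

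The sodium pump was measured through ATP1A4, a catalytic subunit known from sperm, and 4 genes of the β family, which includes the subunits that carry the pump to the membrane. ATP1B1, the β subunit found in most epithelia, lay at 0.024 ± 0.07 in FLX and −0.0086 ± 0.12 in SUN (SD, n = 4), which is within the spread. ATP1B2 read −0.40, −0.59, 0.013 and −0.27 in SUN and 0.012, −0.41, −0.055 and 0.0033 in FLX. In SUN the third replicate was near 0 and the others below CAN, and in FLX only the second stood clearly below it. The SUN mean was −0.31 ± 0.25, a 1.24-fold lower level, with a limma adjusted p of 0.774. ATP1B3 ran opposite in SUN, at 0.30, 0.54, −0.10 and 0.17, with a mean of 0.23 ± 0.26 and an adjusted p of 0.774. That value came mainly from 1 of its 3 probes, whose SUN mean was 0.55 beside 0.073 and 0.062 for the others.

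Aquaporin means lay between −0.060 and 0.19 in FLX and between −0.24 and 0.085 in SUN, with medians of −0.013 and −0.023. AQP3, which passes water and glycerol, read 0.47, −0.38, −0.17 and −0.15 in FLX and −0.074, −0.52, −0.28 and −0.092 in SUN. Every SUN replicate was below CAN, as were 3 of 4 in FLX. The means were −0.060 ± 0.37 and −0.24 ± 0.21 (SD, n = 4), and neither passed the test. The 2 AQP3 probes parted in FLX replicate 1, at 1.05 and −0.12. AQP11, an aquaporin of internal membranes, had its widest value in the same replicate, at 1.26, with the other 3 FLX replicates between −0.38 and −0.043. SLC9A3, the apical sodium-proton exchanger that can feed sodium to the pump, read 0.13, 0.025, 0.076 and −0.11 in FLX and 0.090, 0.12, 0.013 and 0.090 in SUN. Its SUN mean was 0.077 ± 0.05, and the groups overlapped.

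The 6 genes that share only a prefix had means between −0.13 and 0.12 in FLX and between −0.088 and 0.15 in SUN. DSCR3, now VPS26C, a subunit of an endosomal sorting complex, read 0.11, 0.32, 0.16 and −0.0066 in SUN and −0.16, 0.063, 0.19 and −0.0059 in FLX. Its SUN mean of 0.15 ± 0.14 (SD, n = 4) was the largest of the 6. Without these genes the count at an unadjusted p under 0.05 in SUN was 7 of 70 (10.0%, beside 6.44% of all features).

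The direct comparison of the oilseeds differed with the pairing of replicates. Unpaired, CLDN6 was the only member at an unadjusted p under 0.05 in FLX vs SUN, beside 2.24% of all features. With same-numbered replicates paired, 6 members were counted (7.89%, beside 5.12% of all features), and 0 passed the limma adjusted p, whose lowest value was 0.888. CLDN4, CLDN6, JAM2, CLDN23 and ATP1B3 were lower and GJB5 higher in FLX. For CLDN4 the differences of same-numbered replicates were −0.26, −0.92, −0.98 and −0.68, all below 0, with a mean of −0.71 ± 0.33 (SD, n = 4). CLDN23 differed by 0.058, −1.77, −0.75 and −0.93, a mean of −0.85 ± 0.75. GJB5 differed by 0.44, 0.26, 0.065 and 0.37, all above 0. The unpaired count was 2 without FLX replicate 3, 2 without SUN replicate 4 and 6 without SUN replicate 3, beside 1.95%, 2.07% and 4.83% of all features.

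The 7 lists of other genes from the same pathways held no called gene either. They covered further genes of tight junctions (10 measured), adherens junctions (10), desmosomes (7), polarity (15), Hippo signalling (13), gap junctions (8) and ion transport (13), 76 genes in all. None passed the limma adjusted p in FLX vs CAN, SUN vs CAN or FLX vs SUN. At an unadjusted p under 0.05 there were 2 in FLX vs CAN (2.63%), 4 in SUN vs CAN (5.26%) and 1 in FLX vs SUN (1.32%), shares near those of all features. LSR, angulin-1, which recruits tricellulin to cell corners, had means of −0.32 ± 0.24 in FLX and −0.28 ± 0.24 in SUN (SD, n = 4), with 4 of 4 and 3 of 4 replicates below CAN. LATS2, a Hippo pathway kinase, had an FLX mean of −0.28 ± 0.16 and differed by −0.45 ± 0.25 between FLX and SUN. VCL, vinculin, which ties adherens junctions to actin, had a SUN mean of 0.22 ± 0.08. CRB3, an apical polarity protein, and LLGL1, a basolateral one, had SUN means of −0.16 ± 0.07 and −0.14 ± 0.07. The list medians lay between −0.046 and 0.0023 in FLX and between −0.036 and 0.063 in SUN.

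Markers of cell types that a blastocyst sample could hold were set beside these values. In FLX and SUN, the median of trophectoderm markers was −0.14 and 0.092, that of inner cell mass markers 0.021 and 0.019, and that of hypoblast markers 0.035 and 0.019. The medians hide wide members: inner cell mass means ran from −0.073 to 0.29 in FLX and from −0.13 to 1.72 in SUN. Hypoblast means ran from −0.030 to 0.22 and from −0.14 to 0.40. No gene of these 2 lists had an unadjusted p under 0.05 against CAN. Cumulus and granulosa markers had medians of −0.046 and 0.061, blood markers of 0.031 and 0.011, uterine epithelium markers of −0.11 and −0.044, and sperm markers of −0.011 and −0.049. Of 6 cumulus and granulosa markers, 1 had an unadjusted p under 0.05 in SUN vs CAN, with a positive mean, beside 6.44% of all features. The sperm markers parted in SUN, where 3 of 4 had an unadjusted p under 0.05: TNP1 had a mean of 0.52 ± 0.53, PRM1 of −0.13 ± 0.07 and PRM2 of −0.14 ± 0.11, each with 1 sign in all 4 replicates and a limma adjusted p of 0.774. PAG2, a pregnancy-associated glycoprotein of trophoblast, had the largest SUN mean of the trophectoderm list, 0.85 ± 0.63 (SD, n = 4), with a limma adjusted p of 0.774. The part of cell type composition in the junction gene values was not tested.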

How the data were processed

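Day 7.5 bovine blastocysts of 3 maternal diets were measured on 16 two-colour arrays. The deposited table holds a log2 ratio for each probe on each array, normalised by the authors. Their scaling, centring and background correction are not given in the sources used here. Direction (Cy5 over Cy3) and log base are assumed, and the dyes per array come from the labels. Spot intensities were not analysed here, so weak probes could not be left out.

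Arrays were turned to diet over CAN, averaged with their dye exchange to 1 replicate, and probes were averaged per symbol. Symbols came from GEO's platform annotation, updated through RefSeq genes of ARS-UCD2.0, in which 75 of the 76 members were found. Of all probes, 21790 had 1 symbol, 0 several and 22004 none. A single fit with limma (lmFit, then eBayes) over the 8 replicates, with 6 residual degrees of freedom and 2.34 from the prior, gave 3 comparisons. Its p-values are two-sided, adjusted over 37233 features by Benjamini-Hochberg, and measure only the spread between these samples. It was tested on simulated data. Same-numbered FLX and SUN replicates deviated together (correlation of deviations from the diet means 0.41 to 0.576, against −0.305 to 0.00527 for other numbers). Numbers were therefore taken as pairs for the SD of differences and in an alternative fit of FLX vs SUN, while the main fit left them unpaired. Whether same-numbered replicates shared a CAN pool is not given in the sources used here.

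Members and lists were chosen with earlier results of these data known. Values per replicate are given for CLDN6 and CLDN23, for the 4 members of smallest p against CAN in each diet and the 3 in FLX vs SUN, for the 3 of largest SD, and for the largest mean per role; members named beyond this rule were chosen after their values were seen. Of other lists, members at an unadjusted p under 0.05 are named, except 1 cumulus or granulosa marker in SUN vs CAN. Alternatives covered probe handling, dye orientation, centring, scaling, robust fitting, slide and replicate blocks and left-out replicates. Gene order in that assembly was used only to name neighbouring genes, and no sequence or coordinate is printed. Tests used limma 3.58.1 and statmod 1.5.0 in R 4.3.3. Tables and figures used Python 3.11.15, pandas 2.3.3, numpy 2.4.6 and matplotlib 3.10.9.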

Additional observations from a re-analysis of the deposited data

Results flagged for a closer look

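Of 36 gene-by-diet groups of 4 replicates checked for a single distant replicate (Dixon's test at the 95% level), 3 had one. Chance gives about 1 in 20 for groups picked without regard to their values. Most of these genes were picked by their p, spread or mean in these data, so that rate cannot be set against the count. CLDN23 in FLX replicate 3 stood at a log2 ratio of −2.39, far below the other 3 FLX replicates, and both arrays of that replicate read it alike. ATP1B2 in FLX replicate 2 stood at −0.41, with the other 3 between −0.055 and 0.012. CLDN3 in SUN replicate 4 stood at 0.037, above the other 3, which lay between −0.44 and −0.36.

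CLDN6 had all 4 FLX replicates below and all 4 SUN replicates above CAN. The difference between the diets was −0.34 on the log2 scale, and limma's adjusted p of the difference was 1.00 in the unpaired fit. On the arrays with CAN in Cy5 alone the difference was 0.052.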

How the results depend on the processing

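Results were recomputed under 22 other settings, 452 results and settings in all, of which 425 kept their direction and side of the threshold or stayed within the bounds set for a count or a value. Many of these could not change direction. Robust fitting, the blocks and a left-out replicate of the other diet keep a gene's mean against CAN as it was. The count of 425 is thus no measure of stability. No member was called by limma's adjusted p in any comparison under any of the 22 settings. Signs turned for CLDN6 on the arrays with CAN in Cy5 only (SUN vs CAN −0.12, FLX vs SUN 0.052), for CLDN2 in FLX vs CAN on the same arrays (0.033), and for CLDN23 in FLX vs CAN without replicate 3 of FLX or of both diets (0.47 in each, and −0.55 to 0.47 with single replicates left out). The cause was not tested. Members at an unadjusted p under 0.05 in FLX vs CAN, 1 as reported, numbered 4 when each probe was tested on its own. That counts a gene by any of its probes (5.26% of genes), while 2.91% of single probes did so. On the Cy3 arrays (CAN in Cy3) the count was 4 (5.26%, beside 11.9% of all features). It was 2 on the Cy5 arrays (2.63%, beside 6.88%) and 3 without number 3 in both diets (3.95%, beside 3.48%). With single replicates left out it was 1 to 4 (1.32% to 5.26%, beside 2.11% to 4.28%). In SUN vs CAN, 7 became 11 when a gene was counted by any of its probes (14.5% of genes). Of single probes on the whole array 6.46% did so, an unlike unit that cannot be set against the share of genes. The SUN vs CAN count was 15 without number 3 in both diets (19.7%, beside 10.8% of features), a choice made after seeing the data. With single replicates left out it was 2 to 12 (2.63% to 15.8%, beside 4.18% to 10.7% of features). In FLX vs SUN, 1 became 2 by any of a gene's probes (2.63% of genes, while 2.17% of single probes did so). On the Cy3 arrays the count was 4 (5.26%, beside 4.73% of features) and on the Cy5 arrays 3 (3.95%, beside 4.65%). It was 4 without number 3 (5.26%, beside 3.35%) and 1 to 6 with single replicates left out (1.32% to 7.89%, beside 1.89% to 4.83%). With the replicate number as a block it was 6, and the block changed no other call. The median over members in FLX vs CAN was −0.036 on the Cy3 arrays. In FLX vs SUN, −0.0025 as reported, it was −0.019 on the Cy3 arrays, 0.012 on the Cy5 arrays and −0.013 to 0.0038 with single replicates left out. As all FLX replicates of CLDN6 were below CAN and all its SUN replicates above, leaving out a replicate could not turn its sign. With single replicates left out its mean was −0.17 to −0.14 in FLX and 0.16 to 0.21 in SUN. The difference between the diets was then −0.36 to −0.31. Adjusted p of CLDN6 ranged from 0.16 to 1.00 over settings in SUN vs CAN. Signal over background is unknown, so what weak probes limit cannot be stated.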
